A study of Homo sapiens with 5 samples.

Results

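The glycine cleavage system and the enzymes that make and split serine were followed across 5 cell lines, through 10 genes chosen by name: GLDC, AMT, GCSH, SHMT1, SHMT2, PHGDH, PSAT1, PSPH, MTHFD2 and MTHFD1L. They were chosen with the resistant-minus-sensitive difference of GLDC known, so all values of that contrast are a description of these genes and support nothing further. All 10 had a probe, 16 probes in all of 47318 on the array, and 20044 genes had a probe in the whole data set. Each of the 10 genes was detected on at least 1 array (detection p under 0.01), and 9 of them were detected on all 5 arrays. Of the 20044 genes, 12478 were detected on at least 1 array and 8701 on all 5. The resistant group held 4 lines resistant to trastuzumab, which is an antibody to the receptor ERBB2. These are the lines N87-TR1 through N87-TR4, with 1 array each. The sensitive group held 1 array of NCI-N87, a human gastric cancer line that is sensitive to the drug. All 5 lines were grown in the same glutamine-supplemented RPMI medium with serum, and the labels name no treatment of the cells before RNA was taken. Nor do they say how the resistant lines arose, whether each is a clone, or whether they were cultured apart, so a p-value here reflects no more than the spread among these arrays, which may be technical.

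Serine is made from a glycolytic intermediate in 3 steps, catalysed by PHGDH, PSAT1 and PSPH. Serine hydroxymethyltransferase, cytosolic SHMT1 or mitochondrial SHMT2, splits serine into glycine and a carbon unit carried on tetrahydrofolate. In mitochondria MTHFD2 oxidises that unit and MTHFD1L releases it as formate, which feeds purine and thymidylate synthesis. The glycine cleavage system is a separate mitochondrial complex that breaks glycine down to carbon dioxide, ammonia and a further folate-bound carbon unit. Its parts are the decarboxylase GLDC, the lipoylated carrier GCSH, the aminomethyltransferase AMT and the dehydrogenase DLD, which other complexes share. In adults the complex is known for its activity in liver and kidney, and GLDC has been described as a driver in some lung tumour-initiating cells.

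The promoter sequences below show the start-site regions of GLDC, which differed most of the 10 enzymes between the groups, of PHGDH, the serine synthesis enzyme with the largest mean difference, and of MTHFD1L, the member that was lower in the resistant lines. They are RefSeq windows on GRCh38.p14, from 250 bases before to 50 bases after the start site, written 5′ to 3′ on the gene's strand. Capitals mark the composite element bound by ATF4 (TGATGNAA) and the E-box bound by MYC (CACGTG), searched on both strands.
GLDC (chr9:6645680-6645979, minus strand): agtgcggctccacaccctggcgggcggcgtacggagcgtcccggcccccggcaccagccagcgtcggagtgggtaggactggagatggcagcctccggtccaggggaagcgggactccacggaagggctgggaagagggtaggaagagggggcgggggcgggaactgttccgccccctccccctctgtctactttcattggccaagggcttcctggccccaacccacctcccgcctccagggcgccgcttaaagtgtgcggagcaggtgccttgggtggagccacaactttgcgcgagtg
PHGDH (chr1:119711684-119711983, plus strand): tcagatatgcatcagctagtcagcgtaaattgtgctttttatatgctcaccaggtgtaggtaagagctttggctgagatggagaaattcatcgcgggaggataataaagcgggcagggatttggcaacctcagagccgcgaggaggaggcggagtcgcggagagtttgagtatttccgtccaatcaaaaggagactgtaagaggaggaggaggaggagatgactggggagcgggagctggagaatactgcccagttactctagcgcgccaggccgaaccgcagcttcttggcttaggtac
MTHFD1L (chr6:150866083-150866382, plus strand): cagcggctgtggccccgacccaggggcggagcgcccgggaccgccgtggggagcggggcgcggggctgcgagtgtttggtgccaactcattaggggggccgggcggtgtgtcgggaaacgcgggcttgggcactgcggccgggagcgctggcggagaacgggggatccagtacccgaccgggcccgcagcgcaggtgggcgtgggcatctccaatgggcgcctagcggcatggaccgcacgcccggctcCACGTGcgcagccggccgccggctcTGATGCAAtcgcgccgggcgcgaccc

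RefSeq windows matched 8 of the 10 genes, with 11 windows in all. The ATF4 element, TGATGNAA, lay in a window of 1 of those 8 genes, MTHFD1L, against 4.46% of all 27305 genes with a window. It lies beside an E-box, CACGTG, which was likewise found in 1 of the 8 genes and in 8.77% of all genes. The motif TGACNNNGC, a form of the antioxidant response element bound by NFE2L2, lay in windows of 2 genes, GCSH and MTHFD2, against 16.1% of all genes. None of these 3 motifs overlapped another in the windows of the members. The GLDC and PHGDH windows printed above hold none of these letters. A match describes the sequence only, and its absence concerns this window only.

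The arrays of the resistant lines resembled one another more than they resembled NCI-N87. Across the 12478 genes tested, which are not independent replicates, the resistant lines correlated with each other at r = 0.943 to 0.979 and with NCI-N87 at r = 0.751 to 0.764. Over all genes, 10248 to 11069 were detected per resistant line and 10381 in NCI-N87. Of 10 epithelial markers, 3 to 5 were detected in the resistant lines and 10 in NCI-N87. Of 10 gastric markers, 9 had a probe, 1 to 3 were detected in the resistant lines and 3 in NCI-N87, and 7 were not tested. The mucin MUC1 had log2 levels of 8.31 to 8.38 in the resistant lines and 12.98 in NCI-N87, and MUC6 had 6.17 to 7.20 and 8.28. GATA6, the remaining gastric marker tested, had 5.90 to 6.48 and 6.47. The mucins were thus lower in the resistant lines, whereas GATA6 overlapped. No endothelial marker of 5 was detected in any line, at most 1 of 7 fibroblast markers was, and 2 of 7 leukocyte markers were detected in each resistant line against 3 in NCI-N87. Median scanner signals were 139 to 158 in the resistant lines and 134 in NCI-N87. ERBB2, the drug target, had log2 levels of 10.22 to 10.73 in the resistant lines and 15.90 in NCI-N87. SMAD4, a signal transducer named after its value was seen, had log2 levels of 9.99 to 10.39 in the resistant lines and was not detected in NCI-N87, at 5.42. Whether the resistant lines descend from NCI-N87 was not tested.

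GLDC was high in every resistant line and not above background in NCI-N87. Its scanner signal was 3580, 4466, 2496 and 6066 in N87-TR1 to N87-TR4, against 103.5 in NCI-N87, where the detection p was 0.530. After normalization its log2 level was 12.02, 12.01, 11.32 and 12.22 in N87-TR1 to N87-TR4, against 4.92 in NCI-N87. The resistant lines therefore lay within a 1.88-fold range of one another, with a mean of 11.89 ± 0.40 (SD, n = 4), and none overlapped NCI-N87. Because NCI-N87 gave only a bound, the fold is stated against 6.42, the lowest log2 level of any named probe detected on that array. Set against that bound, the mean of GLDC over the resistant lines was higher by at least 44.3-fold. N87-TR3, at 11.32, lay below that mean. In bulk RNA, fewer cells with the transcript and less transcript per cell cannot be told apart.

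**Figure D1:**
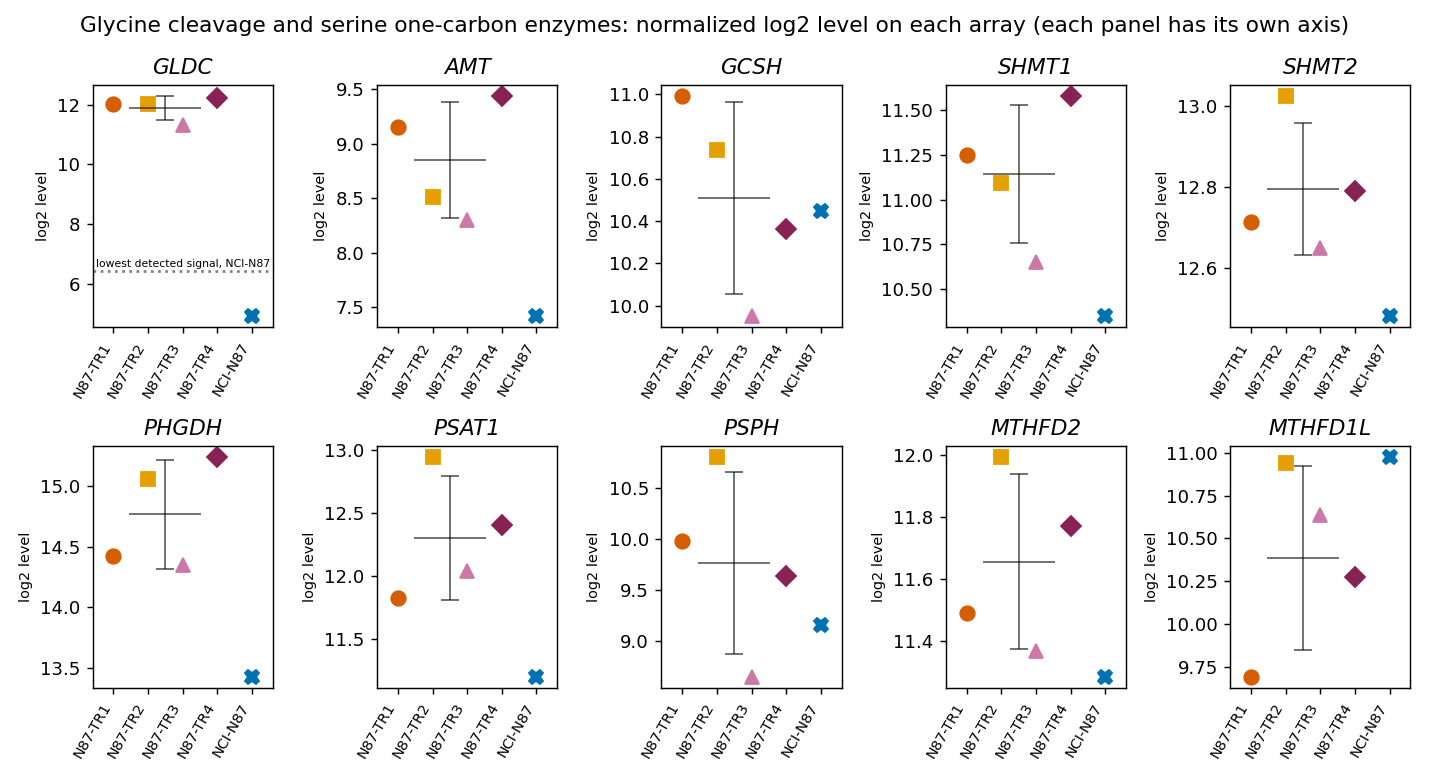
Normalized log2 levels of the 10 enzymes on each array, 1 panel per gene with its own axis; the black bar is the mean of the 4 resistant lines with its SD, and the dotted line in the GLDC panel is the lowest detected signal on the NCI-N87 array. GLDC sits between 11.32 and 12.22 in the resistant lines and at 4.92 in NCI-N87, whereas the largest difference of the other genes between a resistant line and NCI-N87 is 2.02, for AMT in N87-TR4.

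The partners of GLDC in the complex did not share its step. AMT, which passes the carbon unit to tetrahydrofolate, had log2 levels of 9.15, 8.52, 8.30 and 9.44 in N87-TR1 to N87-TR4, against 7.42 in NCI-N87. All 4 resistant lines lay above NCI-N87, by 0.89 to 2.02 log2 units, and the mean fold was 2.71. GCSH, the lipoylated shuttle protein, had log2 levels of 10.99, 10.74, 9.95 and 10.36 in the resistant lines, against 10.45 in NCI-N87. The groups overlapped, and the mean difference of GCSH was 0.06 on the log2 scale. The other 2 GCSH probes were not detected on any array. GCSH, PSPH, PSAT1 and MTHFD2 have pseudogene copies that a probe may not tell apart from the gene, and so has GLDC. DLD, the shared dehydrogenase, had log2 levels of 10.71, 11.20, 9.99 and 10.96 in the resistant lines, against 9.92 in NCI-N87, and its difference of 0.80 ± 0.48 (SE) did not pass the limma test (adjusted p = 0.283).

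The serine synthesis enzymes were higher in most resistant lines, by amounts far below that of GLDC. PHGDH, which commits carbon to serine, had log2 levels of 14.42, 15.06, 14.35 and 15.25 in N87-TR1 to N87-TR4, against 13.42 in NCI-N87. Every resistant line was above NCI-N87, from 1.90-fold in N87-TR3 to 3.53-fold in N87-TR4. PSAT1, the transaminase of the second step, had log2 levels of 11.83, 12.95, 12.04 and 12.40, against 11.20 in NCI-N87. Again no resistant line overlapped NCI-N87, and the mean fold was 2.15. The second PSAT1 probe was not detected on any array.

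PSPH, the phosphatase of the last step, gave different orders of the lines by its probes. The probe used gave log2 levels of 9.98, 10.81, 8.64 and 9.63 in N87-TR1 to N87-TR4, against 9.16 in NCI-N87, so N87-TR3 lay below NCI-N87 and the other 3 above it. The other PSPH probe, also detected on all 5 arrays, gave 7.84, 9.02, 8.49 and 8.10, against 7.14 in NCI-N87, with all 4 resistant lines above. Both probes were highest in N87-TR2. For N87-TR3 the first probe was the lowest of the resistant lines and the second was the second highest, so its direction against NCI-N87 is uncertain.

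**Figure D2:**
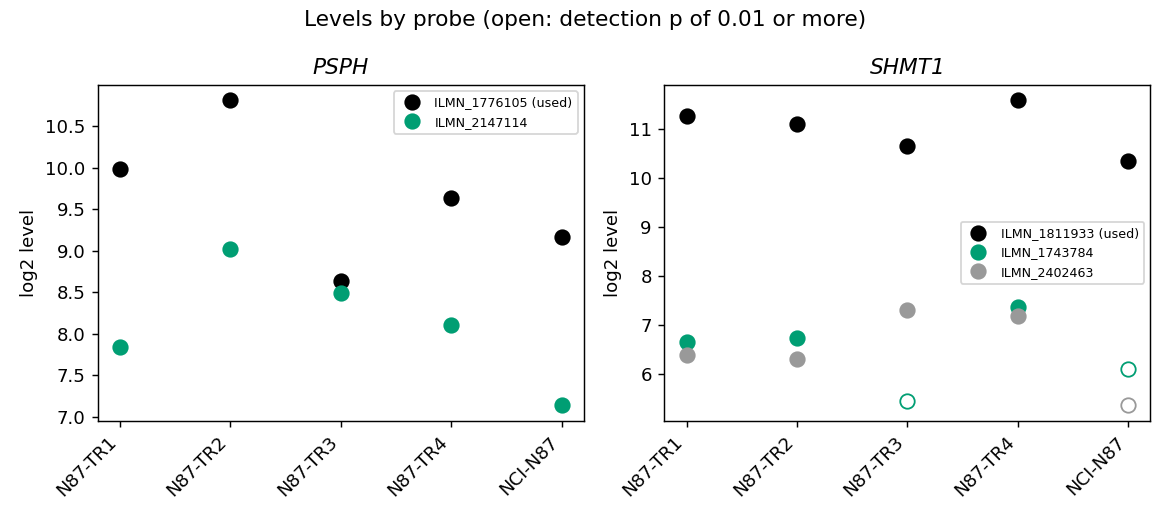
Normalized log2 level by probe of PSPH and SHMT1 on each array; filled points have a detection p under 0.01 and open points do not. Within the probe used for PSPH the lowest array is N87-TR3, at 8.64, and within the other PSPH probe it is NCI-N87, at 7.14.

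Both serine hydroxymethyltransferases lay above NCI-N87 in all 4 resistant lines by the probe used, without a mean difference that passed the test. Cytosolic SHMT1 had log2 levels of 11.25, 11.09, 10.65 and 11.58 in N87-TR1 to N87-TR4, against 10.35 in NCI-N87, a mean fold of 1.74. Both other SHMT1 probes were dimmer and not detected in NCI-N87. They were detected in 3 and in 4 resistant lines. Their mean log2 levels over the 4 resistant lines were 6.55 and 6.79, little above the bound of 6.42 for NCI-N87. In N87-TR3 the probe detected in 3 lines was undetected at 5.45, below an undetected 6.10 in NCI-N87. Mitochondrial SHMT2 had log2 levels of 12.71, 13.03, 12.65 and 12.79 in the resistant lines, against 12.48 in NCI-N87. SHMT2 in N87-TR3 was only 0.17 log2 units above NCI-N87, and with cyclic loess normalization SHMT2 was no longer above it in all 4 lines.

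Neither mitochondrial folate enzyme had a mean difference that passed the test. MTHFD2, the dehydrogenase and cyclohydrolase, had log2 levels of 11.49, 12.00, 11.37 and 11.77 in N87-TR1 to N87-TR4, against 11.28 in NCI-N87. No resistant line overlapped NCI-N87, although N87-TR3 was only 0.08 above it, and the mean fold was 1.30. MTHFD1L, the formate-releasing ligase, had log2 levels of 9.69, 10.94, 10.64 and 10.27, against 10.98 in NCI-N87. It was below NCI-N87 in all 4 resistant lines, from 2.43-fold lower in N87-TR1 to 1.03-fold lower in N87-TR2.

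Counted together, 7 of the 10 genes were above NCI-N87 in all 4 resistant lines, namely GLDC, AMT, SHMT1, SHMT2, PHGDH, PSAT1 and MTHFD2, where 36.9% of all 12478 tested genes were. Only MTHFD1L lay below NCI-N87 in all 4, where 31.7% of all genes did. With cyclic loess normalization the first count was 5 of 10, without SHMT2 and MTHFD2, beside 32.8% of all genes. The mean difference passed the limma test (Benjamini-Hochberg adjusted p under 0.05 over all tested genes) for 1 of the 10, GLDC, and 9 did not pass. Of all tested genes 23.1% passed, 12.5% as higher and 10.5% as lower. Without N87-TR3 the mean log2 difference was 1.619 for AMT and 1.485 for PHGDH, against 1.435 and 1.345 with all 4 lines. That of PHGDH was 1.338 without background correction and 1.503 with scaling to the 75th percentile. On the authors' processed values it was 1.342. Which genes passed changed with the line left out and the setting, over all tested genes as well as for AMT and PHGDH. The median difference of the 10 genes was 0.70 on the log2 scale, beside 0.07 over all tested genes. Nothing is read from these counts, since the contrast was used to choose the genes.

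**Figure D3:**
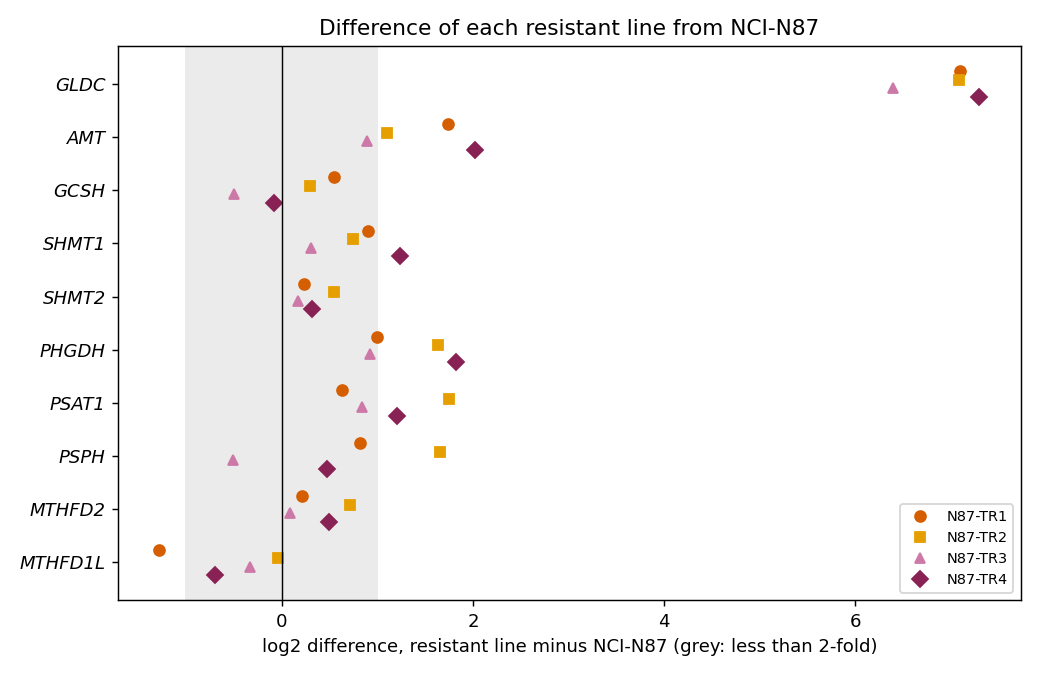
Log2 difference of each resistant line from NCI-N87 for the 10 enzymes, with differences under 2-fold in grey. GLDC lies between 6.39 and 7.30, but its NCI-N87 level was not above background, so those differences rest on an undetected signal; AMT, PHGDH and PSAT1 reach 2-fold in some lines only, and MTHFD1L lies below 0 in all 4.

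Taken line by line, where a single array stood on either side and no test was made, the number of enzymes at least 2-fold above NCI-N87 was uneven. N87-TR2 had 5 (GLDC, AMT, PHGDH, PSAT1 and PSPH), where 18.7% of all tested genes were that far above. N87-TR4 also had 5, with SHMT1 in place of PSPH, against 18.4% of all genes. N87-TR1 had 2, GLDC and AMT, against 19.2%, and N87-TR3 had 1, GLDC, against 22.2%. At least 2-fold lower was only MTHFD1L in N87-TR1, where 17.1% of all genes were, and none of the 10 in the other lines, where 16.5% (N87-TR2), 17.6% (N87-TR3) and 16.3% (N87-TR4) of genes were. These 4 comparisons share the NCI-N87 array, so they are not independent of each other.

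Among the resistant lines, a comparison that is not known to have been used in choosing the genes, N87-TR3 had the lowest level for 8 of the 10 enzymes. It was the lowest of the 4 lines for 25.8% of all tested genes. The exceptions were PSAT1 and MTHFD1L, which were lowest in N87-TR1. These counts rest on the probe used for each gene. The other PSPH probe, detected on all 5 arrays, was not lowest in N87-TR3, at 8.49. Of the other SHMT1 probes, the probe detected in all 4 resistant lines was highest in N87-TR3, at 7.30. The remaining SHMT1 probe was lowest in N87-TR3, undetected at 5.45. The count lowest in N87-TR3 was 5 of 10, beside 17% of all genes, with scaling to the 75th percentile. With detection on all 5 arrays it was 7 of 9, beside 24.2%. Without N87-TR1, N87-TR2 or N87-TR4, when 3 lines were ranked, it was 9, 8 and 8 of 10. The shares of all genes were then 33.4%, 31.3% and 29.8%. With the remaining settings it was 8 of 10, beside 24.7% to 29.2%. N87-TR3 also had the lowest median scanner signal of the resistant lines, 138.8, and the fewest detected probes, 16118 against 17747 to 18617 in the other 3, and their part in this order was not tested. N87-TR2 was highest for 5 enzymes, where it was highest for 19.55% of all genes, and N87-TR4 for 4, where it was highest for 20.42%. N87-TR3 was highest for 0 of the 10 and for 38.68% of all genes. N87-TR2 and N87-TR4 had the highest median signals, 148.7 and 158.2. For 4 of the 10, SHMT2, PHGDH, PSAT1 and MTHFD2, both N87-TR2 and N87-TR4 lay above both N87-TR1 and N87-TR3, which held for 18.9% of all tested genes. The reverse order held for 0 of the 10 and for 23% of all genes.

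None of these differences between resistant lines passed the test. In limma fits of each line against the other 3, in which the lone array was assumed to vary like the rest, 0 of the 10 enzymes passed in any of the 4 comparisons. Over all tested genes 0.954% passed for N87-TR3, and 0 passed for each of N87-TR1, N87-TR2 and N87-TR4. At an unadjusted p under 0.05 the enzymes were GLDC and PSPH for N87-TR3, where 18.9% of all genes fell under that value. For N87-TR2 PSPH was the only such enzyme, beside 2.6% of all genes. There was none for N87-TR1 or N87-TR4, beside 4.13% of genes in N87-TR1 and 1.41% in N87-TR4. GLDC was 11.32 in N87-TR3, against a mean of 12.09 in the other 3, a log2 difference of -0.77 ± 0.27 (SE, limma adjusted p = 0.211). PSPH was 8.64 in N87-TR3, against a mean of 10.14, a difference of -1.50 ± 0.48 (SE, limma adjusted p = 0.179), by the probe that its other probe contradicts. PSPH in N87-TR2 was 1.39 ± 0.57 above the mean of the other 3 (SE, limma adjusted p = 1.00). MTHFD1L in N87-TR1 was 9.69, against 10.62, a difference of -0.92 ± 0.38 (SE, limma adjusted p = 1.00). SHMT2 varied least, within 1.30-fold over the 4 lines, and PSPH most, over 4.50-fold, by the probe used, whereas its other probe spanned only 7.84 to 9.02 on the log2 scale. Of the 10 enzymes 5 spanned at least 2-fold among the resistant lines, AMT, GCSH, PSAT1, PSPH and MTHFD1L, as did 30.3% of all tested genes.

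**Figure D4:**
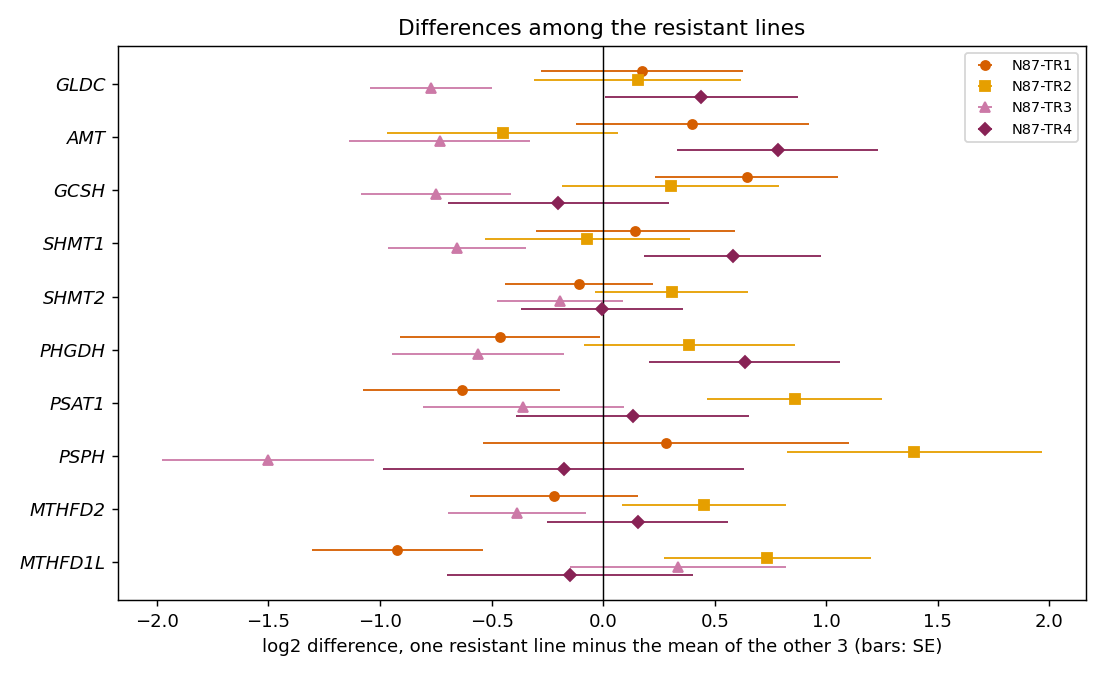
Log2 difference of each resistant line from the mean of the other 3 for the 10 enzymes, with the standard error of the limma fit as bars. N87-TR3 lies left of 0 for all but MTHFD1L, with PSPH farthest at -1.50, and no point passed the test after adjustment.

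By profile over the 5 arrays, the genes most like GLDC were HAND1, TCEAL9 and CDH2. Likeness was the Euclidean distance between log2 profiles, each centred on its own mean, and it was 0.45 for HAND1, 0.58 for TCEAL9 and 0.60 for CDH2. HAND1, a transcription factor, had log2 levels of 11.61, 11.63, 11.20 and 11.76 in N87-TR1 to N87-TR4, against 4.97 in NCI-N87. As with GLDC, 4 of 5 arrays detected each of the 3 genes, and the profile is set mostly by the undetected array.

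Related genes were counted by lists. A gene that rose or fell was higher or lower in the resistant lines past the test, and no change over time is implied. Each count stands beside the 12.5% of all tested genes that rose and the 10.5% that fell. So 1 riser in a list of 6 to 14 is no result about that list. Of the enzymes that attach lipoic acid or supply iron-sulfur clusters for it, together with DLD, 7 of 9 listed genes were tested, and 1 rose and 0 fell. The one that rose was NFU1, an iron-sulfur cluster carrier, at log2 levels of 9.39, 9.68, 9.34 and 9.44 in the resistant lines, against 8.27 in NCI-N87 (difference 1.19 ± 0.30, SE, limma adjusted p = 0.0311). The median difference of the list was 0.56. LIAS, the lipoyl synthase, was not among those that passed (0.56 ± 0.31, SE, limma adjusted p = 0.246).

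Other folate enzymes did not pass. Of 13 listed, 7 were tested, and 0 rose and 0 fell by limma, with a median difference of 0.03. The trifunctional cytosolic enzyme MTHFD1 differed by 0.05 ± 0.32 and thymidylate synthase TYMS by 0.03 ± 0.46 (SE, limma adjusted p = 0.930 and 0.974). Of 6 purine synthesis enzymes 1 rose and 0 fell, with a median of 0.32. The riser was PFAS, which uses glutamine in the middle of that pathway, at 11.32 to 11.76 in the resistant lines, against 10.08 in NCI-N87 (1.44 ± 0.31, SE, limma adjusted p = 0.0174).

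Of other genes for serine and glycine metabolism, CBS, CTH, SRR and GCAT rose. These were 4 of 6 tested among 15 listed, 0 fell and 2 did not pass. CBS, CTH and SRR were detected in resistant lines only and so entered the test through the group where they were high, and the count is not read as a result about the list. CBS, which joins serine to homocysteine at the entry of transsulfuration, had log2 levels of 12.61, 12.76, 12.42 and 12.50 in N87-TR1 to N87-TR4. It was not detected in NCI-N87, at 5.96, so its mean in the resistant lines was at least 70.9-fold higher. CTH, the next transsulfuration enzyme, had 9.90, 10.11, 8.40 and 8.76, against an undetected 5.97 in NCI-N87, a mean at least 7.30-fold higher. SRR, which makes D-serine, had 6.63, 6.75, 7.06 and 6.80, against an undetected 5.15, a mean at least 1.31-fold higher. GCAT, which acts in threonine breakdown to glycine and was named after its value was seen, rose by 1.64 ± 0.36 (SE, limma adjusted p = 0.0198), with 8.82 to 9.52 in the resistant lines and 7.41 in NCI-N87.

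Among methionine-cycle genes and carriers few passed the test. Of 6 tested methionine genes 0 rose and 1 fell (median -0.31). That gene was NNMT, which spends methyl groups on nicotinamide. It was undetected in all 4 resistant lines and had a log2 level of 10.59 in NCI-N87, so it was at least 18.9-fold lower. NNMT entered the test through the group where it was high, so that count is not read as a result about the list. Of 13 carriers tested 1 rose, 1 fell and 11 did not pass (median 0.19). SLC1A4, a neutral amino acid carrier that takes serine, was detected in the 4 resistant lines only. Their mean was at least 1.79-fold higher, but N87-TR1, at 6.50, lay near the bound of 6.42 for NCI-N87. The folate receptor FOLR1, detected in NCI-N87 only, was at least 4.25-fold lower. Both entered the test through the group where they were high, so their counts are not read as a result about the carriers. Of those that did not pass, named after their values were seen, the folate carrier SLC19A1 differed by 1.66 ± 0.55, the mitochondrial serine carrier SFXN1 by 1.06 ± 0.33 and the amino acid carrier SLC38A1 by -1.05 ± 0.44 (SE, limma adjusted p = 0.0764, 0.0590 and 0.142). SFXN2, undetected in NCI-N87, was at least 3.32-fold higher without passing (limma adjusted p = 0.0704).

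The genes listed as regulators of the serine pathway, mostly transcription factors, gave no call. Of 9 tested, 0 rose and 0 fell by limma, with a median of 0.20. CEBPB, named after its value was seen, differed by -1.02 ± 0.34 (SE) without passing. ATF4, the main amino acid stress factor, had log2 levels of 14.16, 14.73, 14.22 and 14.79 in the resistant lines, against 13.61 in NCI-N87 (0.86 ± 0.37, SE, limma adjusted p = 0.147). MYC had 11.91, 12.21, 9.97 and 11.48, against 12.77 (-1.38 ± 0.79, SE, limma adjusted p = 0.260). Among 21 further ATF4 targets, 5 rose, 16 did not pass and 0 fell (median 0.39), and of the risers STC2 and SESN2 were tested only because resistant lines detected them. The list was also chosen with earlier results of these data known, so that count is not read as a result about ATF4 targets. The mean of the resistant lines was at least 36.7-fold higher for STC2, a secreted glycoprotein. It was at least 2.07-fold higher for SESN2, a leucine sensor, and ATF3 rose by 2.94 ± 0.49 (SE). The other risers, named after their values were seen, were asparagine synthetase ASNS (2.00 ± 0.51) and the proline enzyme PYCR1 (1.81 ± 0.35, both SE). Among 14 proliferation genes, 1 rose, 13 did not pass and 0 fell (median 0.23). That gene was the mitotic kinase AURKB, at 10.38 to 11.15 in the resistant lines, against 9.18 in NCI-N87 (1.67 ± 0.38, SE, limma adjusted p = 0.0207).

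**Figure D5:**
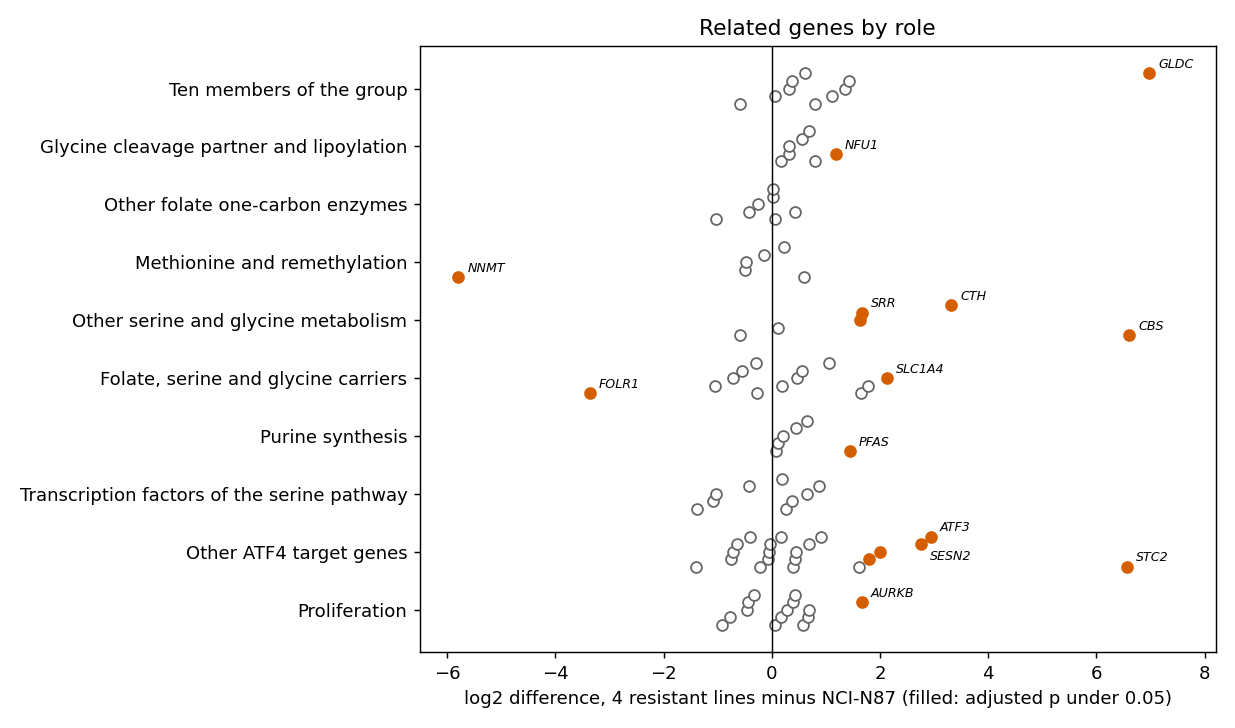
Mean log2 difference of the 4 resistant lines from NCI-N87 for the 10 enzymes and for related genes by role; filled points have an adjusted p under 0.05. GLDC (6.97), CBS (6.61) and STC2 (6.57) stand far to the right, each measured against an undetected NCI-N87 signal, and the remaining members of the group lie between -0.59 and 1.44.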

How the data were processed

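Gene expression was measured in 5 cell lines with 1 array per line, and all arrays carried labels of 1 chip. The authors deposited a table of scanner signal intensity per probe, linear and not normalized, with a detection p-value per probe and array, and the submitters' processing notes name GenomeStudio. A second deposited table holds intensity processed by the authors (method not given in the sources used here), at an array median of 146.3 throughout, and served as an alternative. Lists of genes and members were chosen with earlier results of these data known.

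Signals were processed in R 4.3.3 by neqc, from limma 3.58.1 (background correction, an offset of 16, quantile normalization, log2). A probe was named by platform annotation with symbols updated by gene ID from RefSeq (30072 of 30111 single-gene probes, and 17199 were unnamed). A gene was tested if a probe was detected on at least 1 array, by the probe with the highest mean. Resistant lines were compared with NCI-N87, and each resistant line with the other 3, by lmFit and eBayes, two-sided, with Benjamini-Hochberg adjustment over all 12478 genes. The lone array was assumed to vary like the others (3 residual and 3.83 prior degrees of freedom in the first comparison). Where a group was below detection, a fold is a bound against the lowest detected signal. The bound uses the mean over the 4 resistant lines, so it need not hold for each line. Intensity per array is limited in precision by 1 array per line. Named genes were the 10 members, up to 3 passing genes of each list by size, and the 3 nearest profiles to GLDC. The fits were tested on simulated data. The results were also recomputed after leaving out each resistant line, with probes averaged per gene, with detection required on all or on no arrays, from the second table, with 75th percentile or cyclic loess scaling, and with the background left in or the offset raised to 50. Repeating the counts of line order under these was chosen after seeing the data.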

Additional observations from a re-analysis of the deposited data

How the results depend on the processing

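Of all 12478 genes, 2880 passed the comparison of resistant lines with NCI-N87. With detection required on each of the 5 arrays, 1462 of 8701 passed, and 7 instead of 15 pathway genes. With that filter 0 enzymes of the group passed, because GLDC is not detected in NCI-N87 and drops out. It was 2 enzymes (GLDC and PHGDH) without background correction, with scaling to the 75th percentile and on the authors' processed values. Leaving out 1 resistant line gave 2099 to 3761 genes, 12 to 22 pathway genes and 1 to 3 enzymes, the highest being without N87-TR3. The count over the 4 comparisons among resistant lines was 119 genes. It was 348 without background correction, 302 on the authors' processed values, 247 with detection on all arrays, 71 with the 75th percentile, 40 with averaged probes and 13 without a detection filter. It was 0 to 85 with 1 line left out, and in none of these settings did an enzyme of the group pass. The GLDC difference ranged from 5.10 to 6.97 over settings of the background and scaling. That of GCSH was -0.12 with cyclic loess. The causes were not tested. The pathway genes counted above are those of the lists of related genes, without the 10 enzymes. In the main setting and in every alternative, a smaller share of the tested pathway genes than of all tested genes passed the comparison with NCI-N87. Nothing is read from that difference, since the lists were chosen with earlier results of these data known. No paired analysis was possible because the labels give no pairing of the lines, and the sensitive group has 1 array.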
